A study of Rattus norvegicus with 3 samples.

Results

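The interleukin-6 family of cytokines, their receptor chains and the first steps below the receptors were examined in cultured rat sarcoma cells and mesenchymal stem cells. The family was represented by 10 genes, namely the ligands Il6, Il11, Lif and Clcf1, the receptor chains Il6r, Lifr, Osmr and Il6st, the transcription factor Stat3 and the inhibitor Socs3. They were found on the array through the RefSeq accession of each probe, matched to the rat gene symbol. Probes were named for 8 of the 10 genes, of 13301 genes named on the array. Stat3 had 2 probes and the other genes 1 each. Lif and Clcf1 had no named probe and were not analysed here. RNA was measured with 1 whole rat genome array for each of 3 cultures, all from F344 rats. COS1NR is an osteosarcoma line and MFH1NR a malignant fibrous histiocytoma line. Each is a single line grown from a tumor induced with 4-HAQO. Both lines carry a p53 mutation, as described for them. MSCs were bone marrow cells of the femur that attached to plastic, not sorted by surface markers, and they were kept in medium with more serum than the lines. With 1 array per culture there were no replicates, and no difference was tested against a spread between cultures.

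Cytokines of this family bind a receptor chain of their own and signal through the shared chain gp130, the product of Il6st. Il6r and the receptor of Il11 give specificity for their ligands, while the products of Lifr and Osmr signal as partners of gp130. Janus kinases bound to these chains phosphorylate STAT3, which enters the nucleus and induces target genes, among them Socs3, whose product binds gp130 and stops the signal. In bone, these cytokines are made by osteoblasts and marrow stromal cells and act on the formation of osteoblasts and osteoclasts.

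The 3 arrays held 43379 spots each that were not controls, and between 56.6% and 59.7% of these were well above background by the call of the scanner software. COS1NR and MFH1NR were hybridized on a common slide and MSCs on a separate one, so that for differences from MSCs the slide and the culture cannot be told apart. Every level below is a log2 intensity relative to the 75th percentile of its own array. Probes called well above background reached down to -5.03 (MSCs), -4.72 (COS1NR) and -5.05 (MFH1NR). Levels of different probes were not compared with each other. The errors given are those of the scanner software for a spot, or SDs over repeated spots of the array. Both cover the array only, and neither covers culture or labeling.

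Il6 had the widest measured range of the family, with the level of COS1NR above and that of MFH1NR far below that of MSCs. Its product is the founding ligand of the family, an inflammatory cytokine that also drives osteoclast formation. The probe was printed 10 times on every array. In MSCs the spots read between 502 and 572, with a mean intensity of 522 ± 20.5 (SD, 10 spots). In COS1NR the 8 spots used read between 1779 and 1958, with a mean of 1855 ± 52.8 (SD). In MFH1NR the 10 spots read between 31.7 and 51.1, with a mean of 39.5 ± 5.67 (SD). The spots of the 3 arrays did not overlap. The levels were -0.17, 1.26 and -4.65 in this order, the last of them close to the background limit of -5.05. Il6 was 2.70-fold higher in COS1NR than in MSCs, a log2 difference of 1.44 with a software error of 0.20, and 22.3-fold lower in MFH1NR, with a log2 difference of -4.48 and an error of 0.31. Between the lines, which shared a slide, Il6 was 60.4-fold lower in MFH1NR, with a log2 difference of -5.92 and an error of 0.31. After normexp background correction the differences of MFH1NR were smaller, at -3.16 from MSCs and -4.55 from COS1NR, and with scaling by spike-in probes the latter was -5.12. Of all genes with a difference or a bound in this comparison, 0.889% had a lower one.

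**Figure D1:**
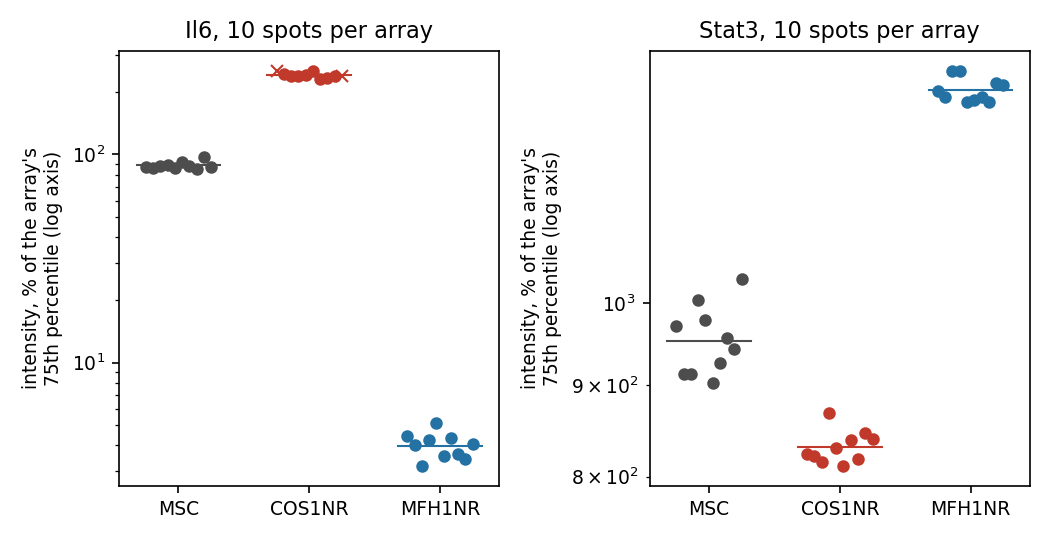
Single spots of Il6 (left) and of the brighter probe of Stat3 (right) on the 3 arrays, with intensity as a percentage of the 75th percentile of the array on a log axis. Points are spots, crosses are spots the software called outliers and lines are means of the others, at 88.7%, 239.8% and 3.97% for Il6 in MSCs, COS1NR and MFH1NR.

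Il11 showed the opposite order of the lines. Il11 encodes a ligand of mesenchymal cells that signals through its own receptor chain and gp130. Its single spot read 94.4 ± 10.2 (software error) in MSCs and 106 ± 12.4 in MFH1NR, and was not well above background in COS1NR, at 6.41. Il11 was thus at least 4.22-fold lower in COS1NR than in MSCs. It was at least 2.82-fold higher in MFH1NR than in COS1NR, a bound of 1.49 in log2. This bound was 2.29 with spike-in scaling and 1.06 after normexp. The bound of COS1NR against MSCs, -2.08 in log2, was -1.62 after normexp. The difference between MFH1NR and MSCs was -0.58 in log2 with an error of 0.23, and without scaling it turned to 0.17.

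The 250 bases before the transcription start of Il6 and of Il11 are shown because these ligands ordered the lines in opposite ways. Both were taken from RefSeq promoters of the GRCr8 assembly, at chr4:5894576-5894825 on the minus strand for Il6 and chr1:78098372-78098621 on the plus strand for Il11. Capitals mark matches to motifs on either strand, which were the cyclic AMP response element TGACGTCA, the C/EBP motif TTNNGCAA, the AP-1 motif TGANTCA, the STAT motif TTCNNNGAA and the kappaB consensus.
Il6: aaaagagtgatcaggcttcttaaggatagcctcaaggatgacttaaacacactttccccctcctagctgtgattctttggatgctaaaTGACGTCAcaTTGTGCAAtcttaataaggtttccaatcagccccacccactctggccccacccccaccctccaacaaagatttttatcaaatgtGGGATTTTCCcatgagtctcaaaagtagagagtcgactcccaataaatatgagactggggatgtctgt
Il11: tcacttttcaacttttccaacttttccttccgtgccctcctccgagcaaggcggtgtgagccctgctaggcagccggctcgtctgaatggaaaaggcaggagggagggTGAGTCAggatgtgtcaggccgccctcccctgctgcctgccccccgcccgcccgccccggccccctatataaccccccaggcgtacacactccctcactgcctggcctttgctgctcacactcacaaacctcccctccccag
The Il6 window held a cyclic AMP response element 162 to 155 bases before the start, a C/EBP match at 152 to 145 and a kappaB match at 68 to 59, and none of these overlapped. The Il11 window held an AP-1 match at 142 to 136. Of 27457 promoter windows of this length, 1.70% held the cyclic AMP response element, 9.20% the C/EBP motif, 6.36% the AP-1 motif, 7.52% the STAT motif and 6.41% the kappaB consensus. Among the 8 family genes that had such a window, Osmr also held an AP-1 match and Socs3 a kappaB match. The STAT motif was found in 0 of these 8. These are matches of letters and not measured binding.

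Of the receptor chains, Il6r and Lifr were at least 2-fold higher in COS1NR than on either other array. Il6r encodes the chain that binds Il6. Its spot read 189 ± 19.2 (software error) in MSCs, 553 ± 55.6 in COS1NR and 256 ± 26.3 in MFH1NR. COS1NR stood above both other arrays, with Il6r 2.23-fold higher than in MSCs. Between MFH1NR and COS1NR it was 2.78-fold lower in MFH1NR, with a log2 difference of -1.47 and an error of 0.21. MFH1NR and MSCs were close, at a log2 difference of -0.32 with an error of 0.21, and without scaling this turned to 0.44. Its difference between COS1NR and MSCs was under 2-fold after normexp and with scaling by spike-in probes, at 0.88 in log2 for the latter.

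Lifr, the chain that binds Lif and pairs with gp130, was well above background in COS1NR alone. It read 105.3 ± 12.7 (software error) there, against 16.7 in MSCs and 18.8 in MFH1NR. Lifr was at least 4.46-fold higher in COS1NR than in MSCs. MFH1NR had at least 4.50-fold less signal than COS1NR, and between MFH1NR and MSCs no ratio can be given. After normexp the bound against MSCs was 0.74 in log2, under 2-fold. Between the lines the bound of -2.17 was -1.29 after normexp and -1.38 with spike-in scaling.

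Osmr and Il6st had their lowest level in MFH1NR. Osmr encodes the chain for oncostatin M and lies beside Lifr in the GRCr8 assembly, with 1 pseudogene between them. Its spot read 203 ± 20.7 (software error) in MSCs, 295 ± 30.1 in COS1NR and 40.6 ± 7.29 in MFH1NR. Between COS1NR and MSCs Osmr had a log2 difference of 0.14 with an error of 0.21, which was 0.54 without scaling and -0.13 with spike-in scaling, all under 2-fold. In MFH1NR it was 8.46-fold lower than in MSCs and 9.35-fold lower than in COS1NR, and after normexp these log2 differences of -3.08 and -3.22 were -1.98 and -2.01. Il6st read 10362 ± 1036 in MSCs, 6833 ± 683 in COS1NR and 1357 ± 136 in MFH1NR, so its levels lay on 3 steps, each larger than the error. In COS1NR Il6st was 1.99-fold lower than in MSCs, just inside the 2-fold threshold. In MFH1NR it was 12.9-fold lower than in MSCs, with a log2 difference of -3.69, an error of 0.20 and a value of -2.93 without scaling. Against COS1NR it was 6.47-fold lower in MFH1NR, with a log2 difference of -2.69, the same error and a value of -1.90 with spike-in scaling. From COS1NR to MFH1NR all 4 receptor chains listed at the start were thus lower by 2-fold or more, against 15.1% of all genes. The exception was Il6r with spike-in scaling, at -0.68 in log2. Il11ra1, the receptor chain of Il11 and not among the listed chains, went the other way, 5.84-fold higher in MFH1NR.

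**Figure D2:**
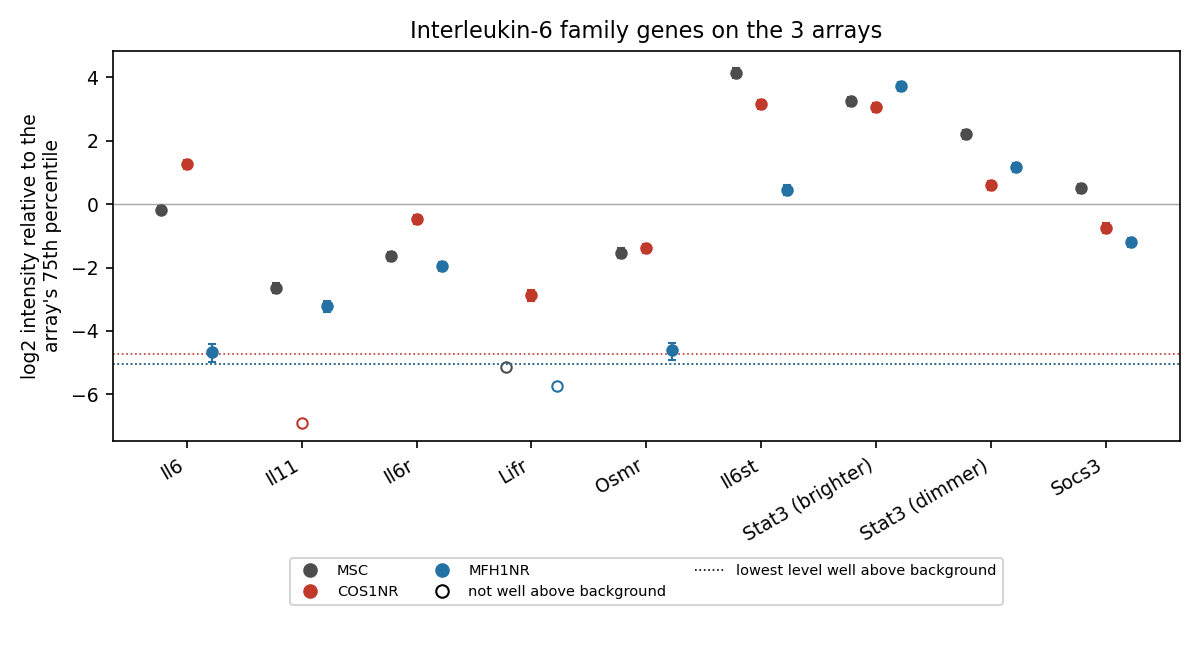
Level of each measured probe on each array (log2 intensity relative to the 75th percentile of the array), with bars for the software error and open circles for probes not well above background. Dotted lines mark the lowest level well above background, which is nearly the same in MSCs (-5.03) and MFH1NR (-5.05), and among probes well above background on all arrays MFH1NR lies lowest for Il6, Il6r, Osmr, Il6st and Socs3.

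Stat3 encodes the transcription factor that these receptors activate. Its brighter probe was printed 10 times and had mean intensities over the spots of 5613 ± 251 (SD) for MSCs, 6431 ± 135 for COS1NR and 13085 ± 204 for MFH1NR. The dimmer probe was a single spot, which read 2730 ± 273 (software error) in MSCs, 1168 ± 117 in COS1NR and 2227 ± 223 in MFH1NR. Both probes carry the same accession, yet they placed MSCs differently. By the brighter one, MFH1NR was 1.38-fold higher than MSCs and COS1NR 1.15-fold lower, the latter a log2 difference of -0.20 that turned to 0.20 without scaling. The difference of MFH1NR from MSCs, 0.47 in log2, was then 1.22, past 2-fold. By the dimmer one, MSCs were highest, with COS1NR 3.07-fold and MFH1NR 2.07-fold lower. The latter, a log2 difference of -1.05, was under 2-fold in 4 of 10 alternatives, at -0.29 without scaling, -0.89 with median scaling, -0.72 after normexp and -0.53 with spike-in scaling. Between the lines both probes gave a like difference, 0.66 and 0.57 in log2 with an error of 0.20 for each, so that Stat3 was higher in MFH1NR than in COS1NR by 1.58-fold and 1.48-fold. Both values were under 2-fold on this scale, while with spike-in scaling they were 1.46 and 1.36 in log2, past 2-fold, and without scaling 1.02 and 0.93.

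Socs3, the feedback inhibitor, was lower in both lines than in MSCs. Its spot read 830 ± 83.1 (software error) in MSCs, 462 ± 46.7 in COS1NR and 433 ± 43.8 in MFH1NR. It was 2.36-fold lower in COS1NR and 3.24-fold lower in MFH1NR than in MSCs, with errors of 0.21 for both log2 differences of -1.24 and -1.69. Without scaling these were -0.84 and -0.94, under 2-fold, and the first was under 2-fold after normexp as well. Between the lines the log2 difference was -0.46 with an error of 0.21, and with spike-in scaling it turned to 0.33. Socs3 and Il6 thus did not order the arrays alike. Macrophage markers, like Socs3 and Il6st, were highest in MSCs, where their summed intensity was 178 times the 75th percentile against 9.70 times in COS1NR and 4.83 times in MFH1NR, and their part in these differences was not tested.

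Genes at least 2-fold apart were counted over the family and over all genes with a probe well above background on at least 1 of the arrays compared, with bounds counted where they passed 2-fold and Stat3 taken by its brighter probe. In COS1NR against MSCs, Il6, Il6r and Lifr were higher, which is 3 of 8 members against 20.6% of 9710 genes. Il11 and Socs3 were lower, which is 2 of 8 against 20.0%. In MFH1NR against MSCs, 0 of 7 members were higher against 19.3% of 9823 genes, and Il6, Il6st, Osmr and Socs3 were lower, which is 4 of 7 against 21.6%. All 14 macrophage markers were lower in MFH1NR than in MSCs as well, with a median of -5.64 in log2, and their part in these differences was not tested. In MFH1NR against COS1NR, Il11 alone was higher, 1 of 8 against 12.4% of 9422 genes. Il6, Il6r, Lifr, Osmr and Il6st were lower, 5 of 8 against 15.1%. The first 2 comparisons share the MSC array and the last shares 1 array with each of them. The median log2 difference over the members was -0.03, -1.69 and -1.82 in this order, against 0.11, 0.02 and -0.09 over all genes. For these medians bounds were taken as values and genes with no ratio were left out. The split over all genes depended on the scaling. Without scaling COS1NR had 32.5% of genes higher and 14.8% lower than MSCs. The shares were 41.4% and 13.0% for MFH1NR against MSCs, and 19.9% and 10.2% for MFH1NR against COS1NR. Of the members, 3 were then higher and 1 lower, 1 (Stat3) higher and 3 lower, and 2 higher and 5 lower, in the same order of comparisons. With spike-in scaling the shares over all genes were 14.5% and 25.03%, 33.6% and 15.0%, and 35.0% and 7.09%, and the members counted 2 higher and 3 lower, 0 higher and 4 lower, and 2 higher and 4 lower.

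**Figure D3:**
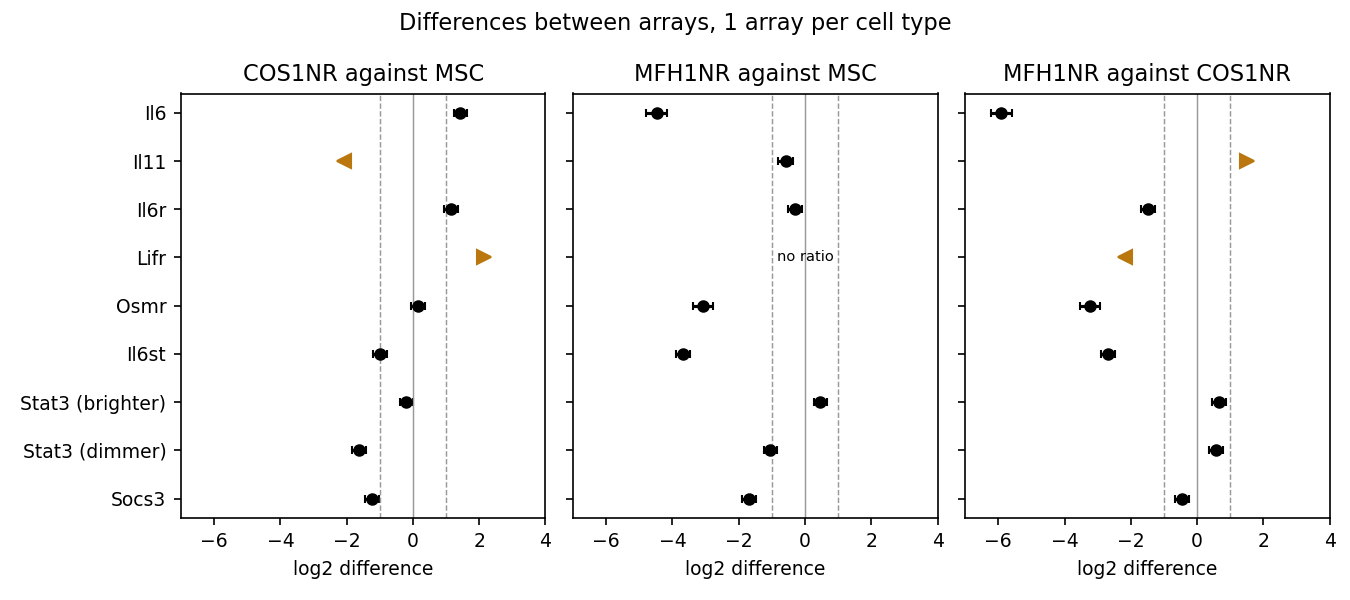
Log2 difference of each measured probe in the 3 comparisons, with bars for the software error, triangles for bounds that point away from 0 and dashed lines at 2-fold. In MFH1NR against COS1NR, 5 of the 8 genes lie beyond the 2-fold line to the left and Il11 to the right.

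Lists of other genes of the pathway were described in the same way, on this scale alone. Of the other ligands of the family, 4 of 5 had a named probe, and against MSCs 1 of these was at least 2-fold lower in COS1NR, 2 in MFH1NR and 0 higher in either, where 20.0% and 21.6% of all genes were lower and 20.6% and 19.3% higher. The macrophage markers were lower in both lines too, 14 of 14, and their part was not tested. Ebi3, a subunit shared by cytokines that resemble interleukin-6, read 547, 386 and 47.3, and was 19.5-fold lower in MFH1NR than in MSCs. Osm, which encodes oncostatin M, was well above background in MSCs alone, at 46.7. Cntf and Ctf1 were within 2-fold in every comparison. Il11ra1, the receptor chain of Il11, read 4604 in MSCs, 761 in COS1NR and 5713 in MFH1NR, so it was 7.94-fold lower in COS1NR than in MSCs and 5.84-fold higher in MFH1NR than in COS1NR. Cntfr, the receptor chain of Cntf, was not well above background on any array. Il11 and its receptor chain both had their lowest level in COS1NR.

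Among the Janus kinases and the other STATs, 8 of 9 named genes were measured, and 1 was higher and 3 were lower in COS1NR than in MSCs, against 20.6% and 20.0% of all genes. Stat5a read 3000 in MSCs and 5374 in MFH1NR but was not well above background in COS1NR, at 25.9, and was at least 134-fold lower there than in MSCs. Stat5b, its close paralog, read 450.1 and 1485 and was likewise not well above background in COS1NR, at 11.7, a decrease of at least 20.1-fold. Jak1, the main kinase of gp130, differed from MSCs by -1.22 (COS1NR) and -0.85 (MFH1NR) in log2, and its second probe was at least 2-fold lower in both. Jak3 was the gene that was higher in COS1NR, by 1.48 in log2. Jak2 was within 2-fold, at -0.85 and -0.92. In MFH1NR, by the brightest probe of each gene, Stat6 was the 1 of 8 at least 2-fold apart from MSCs, at -1.43, where 19.3% of all genes were higher and 21.6% lower.

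Of 13 named inhibitors of gp130 signaling, 1 of the 12 measured in COS1NR or MSCs was higher and 4 were lower in COS1NR, against 20.6% and 20.0% of all genes. In MFH1NR 2 of 13 were higher and 5 lower than in MSCs, against 19.3% and 21.6% of all genes. Socs1 read 331, 46.8 and 114.6 in MSCs, COS1NR and MFH1NR, and was 9.30-fold and 4.88-fold lower in the lines. Cish, a target of STAT5, was 4.78-fold lower in COS1NR and 4.79-fold lower in MFH1NR. Ptpn6, a phosphatase mostly of blood cells, was 2.59-fold and 9.36-fold lower. All 14 macrophage markers were lower in both lines as well, with medians of -4.74 and -5.64 in log2, and their part in the lower levels of these inhibitors was not tested. Pias3, an inhibitor of STAT3, was higher in both lines, by 2.13 and 1.77 in log2. Socs2 was well above background in MFH1NR alone, at 178, and was at least 4.27-fold higher there than in MSCs. Adam17, which sheds the receptor of Il6 from the cell surface, was 2.57-fold lower in MFH1NR than in MSCs and within 2-fold in COS1NR.

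Of 24 listed target genes of STAT3, 23 were measured in each comparison. COS1NR had 4 of them higher and 8 lower relative to MSCs, with a median log2 difference of -0.45, against 20.6% and 20.0% of all genes and their median of 0.11. In MFH1NR 2 were higher and 14 lower than in MSCs, with a median of -2.12, against 19.3% and 21.6% of all genes and their median of 0.02. Between the lines 2 were higher and 13 lower in MFH1NR, with a median of -1.13, against 12.4% and 15.1% of all genes and their median of -0.09. Lcn2, which encodes the acute phase protein lipocalin-2, read 33.9 in MSCs and 8659 in COS1NR, 7.60 higher in log2, and was not well above background in MFH1NR, at 23.1. Junb was 7.33-fold and 17.3-fold lower in COS1NR and MFH1NR than in MSCs, and Timp1 8.31-fold and 7.31-fold. A2m and Lbp, acute phase genes of the liver, read 10184 and 7540 in MSCs, and their log2 differences were -6.30 and -6.02 in COS1NR and -4.02 and -7.15 in MFH1NR. Fosl2 was 2.16 higher in log2 in MFH1NR than in MSCs. All 14 macrophage markers were lower in both lines too, and their part in the lower levels of this list was not tested. Many of these genes answer to other factors as well, so the list is no measure of STAT3 activity.

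Of 14 genes listed as inducers or regulators of Il6, 10 had a named probe. The list was not limited to genes that raise Il6, and Cebpb and Cebpd were also counted among the listed STAT3 targets. In COS1NR 7 of 10 and in MFH1NR 10 of 10 were at least 2-fold lower than in MSCs, with medians of -1.47 and -3.49, against 20.0% and 21.6% of all genes and their medians of 0.11 and 0.02. Il1b, a strong inducer of Il6, read 30130 in MSCs and 1337 in COS1NR and was not well above background in MFH1NR, at 8.06. Cebpb read 3904, 3162 and 1355 and Cebpd 13534, 16338 and 7644 in MSCs, COS1NR and MFH1NR. Both of these C/EBP genes were within 2-fold in COS1NR but past it in MFH1NR, with log2 differences of -2.28 and -1.58. Tnf was well above background in MSCs alone, at 1423. Macrophages are a known source of Il1b and Tnf, and all 14 macrophage markers were lower in both lines as well. The part of macrophages in these levels was not tested. Il6 was at its highest level in COS1NR, where Il1a, Il1b and Tnf all had log2 differences from MSCs of -4.89 or lower. Between the lines the list had the same direction as Il6. Of its 9 measured genes, 6 were lower by 2-fold or more in MFH1NR and 0 higher, against 15.1% and 12.4% of all genes. The median over the 9 was -1.58 in log2, against -0.09 over all genes. Among the 6 were Il1b, with a bound of -5.84, Cebpb at -1.58 and Cebpd at -1.46. A link of these genes to the level of Il6 was not tested.

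**Figure D4:**
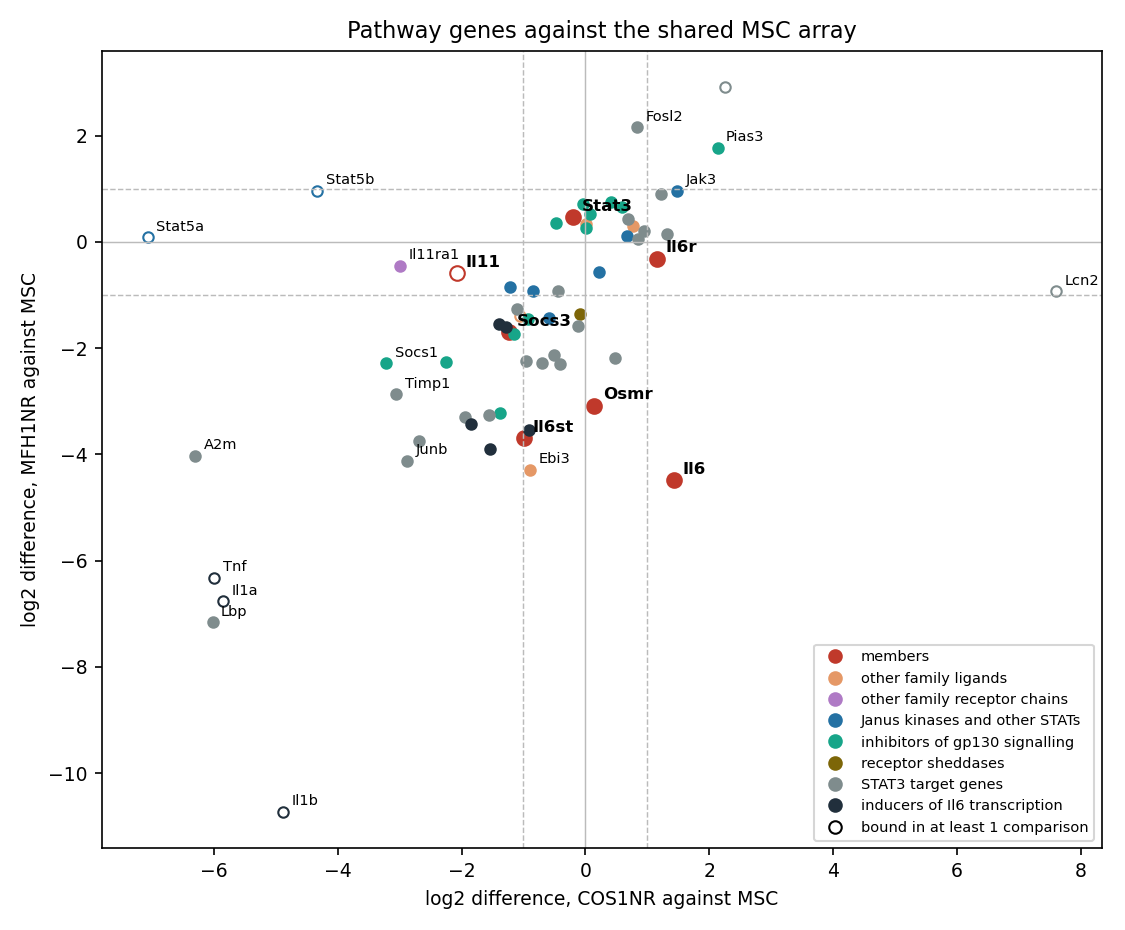
Log2 difference from MSCs in COS1NR (horizontal axis) and in MFH1NR (vertical axis) for the members and the other pathway genes that have both values, with dashed lines at 2-fold. Open circles are bounds in at least 1 comparison, both axes share the MSC array, and Il6 lies at 1.44 and -4.48.

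The genes whose pair of log2 differences from MSCs was nearest to that of Il6 were sought over the 7932 genes that were well above background in all 3 cultures. These were Thbd, Hsd11b1, Pir, Eif1ax and Prg4, at Euclidean distances of 0.10, 0.47, 0.67, 0.69 and 0.70 in log2. Thbd, which encodes thrombomodulin, had differences of 1.53 in COS1NR and -4.47 in MFH1NR. The likeness rests on 3 arrays.

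The labels were checked against markers of cell types. The MSC array held all 14 macrophage markers well above background, among them Csf1r at 1238, Lyz2 at 32304 and Tyrobp at 11921. In COS1NR 6 of them and in MFH1NR 7 were not well above background, Ptprc, Itgam, Mrc1, Lyz2, Adgre1 and C1qa in both. All 14 were at least 2-fold lower in both lines than in MSCs. Their part in the lower levels of the genes listed as inducers or regulators of Il6 was not tested. Among these cultures of mixed RNA, fewer cells of a type and less RNA per cell cannot be told apart. Of the MSC surface markers, all 4 were well above background in MSCs, 2 in COS1NR and 3 in MFH1NR. Of 7 named osteoblast markers, 4 were well above background in COS1NR, where Sp7, Dmp1 and Phex were not, against 5 in MSCs and 5 in MFH1NR. Alpl, Bglap, Ibsp and Spp1 were lower in the osteosarcoma line than in MSCs, with log2 differences of -1.89, -2.54, -3.82 and -1.09. Neutrophil markers were 0 of 5 well above background in MSCs, 2 of 5 in COS1NR and 1 of 5 in MFH1NR. In the same order, T cell markers were 2, 2 and 1 of 5, B cell markers 1, 0 and 0 of 3, endothelial markers 3, 2 and 1 of 5 and fibroblast markers 6, 6 and 5 of 6. Relative to MSCs, 5 of the 6 fibroblast markers were at least 2-fold lower in COS1NR, with a median log2 difference of -4.33, and 3 in MFH1NR, with a median of -1.48.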

How the data were processed

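Cy3-labeled cRNA of MSCs, COS1NR and MFH1NR was hybridized to 1 array each, and the number of arrays limits the precision. The authors deposited the intensity of every spot as background-subtracted and detrended by Agilent Feature Extraction, version 10.5.1.1 per the file headers and 9.1 per the labels, with no scaling between arrays. The deposited series table held the same intensities. Outlier spots were left out, log2 intensities were averaged over the spots of a probe and set to the 75th percentile of the array. A gene was taken by its probe of highest mean level, and a probe counted as well above background if at least 50% of its spots were. Accessions were matched without versions to RefSeq genes of GRCr8. Where 1 array was not well above background, the bound used the higher of its own level and the lowest level well above background there. The members and lists were chosen with earlier results of these data known. Named were all members, members of the lists at least 2-fold apart or needed to read a member (at most 4 per list and direction), and the 5 genes nearest to Il6. A total of 12 alternatives were tried, 1 of them, scaling by 7 spike-in probes, added after the data were seen. A gene among the listed ligands is not reported here and was left out of its list. The calls were tested on simulated data. Python 3.11.15, numpy 2.4.6, pandas 2.3.3, matplotlib 3.10.9, R 4.3.3 and limma 3.58.1 (normexp, offset 50) were used.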

Additional observations from a re-analysis of the deposited data

Results flagged for a closer look

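Il6 was past 2-fold against MSCs in both lines but in opposite directions, with log2 differences of 1.44 in COS1NR and -4.48 in MFH1NR. The difference was not tested, since there was 1 array per culture, and both values rest on the same MSC array. Under the 10 alternatives that apply to these values they stayed between 1.16 and 1.83 in COS1NR and between -4.54 and -3.16 in MFH1NR.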

How the results depend on the processing

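The number of members at least 2-fold apart in COS1NR against MSCs was 5, and it became 2 with normexp (Il6 higher, Il11 lower), 2 with a 3-fold threshold (Lifr higher, Il11 lower) and 3 when bounds were left out (Il6 and Il6r higher, Socs3 lower). The cause was the setting itself for the last 2 and was not tested for normexp. The shares of all genes higher and lower moved too, from 20.6% and 20.0% to 14.7% and 17.5% with normexp. They were 9.75% and 13.1% with the 3-fold threshold and 17.9% and 13.7% with bounds left out. The counts of 4 in MFH1NR against MSCs and 6 in MFH1NR against COS1NR stayed within 1.5 times under each alternative run for them, and no member past 2-fold changed sign. Without scaling the median of all genes moved by 0.39 in COS1NR against MSCs, 0.76 in MFH1NR against MSCs and 0.36 in MFH1NR against COS1NR, and with spike-in scaling by -0.27, 0.52 and 0.79. The brighter probe of Stat3 then passed 2-fold in MFH1NR, at 1.22 against MSCs without scaling and at up to 1.46 against COS1NR with spike-in scaling. Il6st in COS1NR passed 2-fold with quantile normalization, with spike-in scaling and with the percentile over probes well above background on all arrays, the lowest value being -1.27. Il6r in MFH1NR against COS1NR was -0.68 with spike-in scaling. Levels of Il6 and Osmr in MFH1NR lay near the background limit, where normexp gave -3.16 and -1.98 against MSCs. No paired analysis was possible because each culture had 1 array.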

Other observations

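Stat5b, Stat5a and Stat3 follow each other in the GRCr8 assembly, and in COS1NR Stat5a and Stat5b were not well above background while Stat3 was. Their neighbors were looked at after this was seen. Of 6 protein-coding genes to each side, 10 of 12 had a named probe and 8 of these were well above background in COS1NR. On the side of Stat5b, Hcrt read 203, 1055 and 563 (MSCs, COS1NR, MFH1NR), and beyond it Rab5c read 23196, 31034 and 46691. On the side of Stat3, Cavin1 read 97.8, 57.2 and 86.4 and Atp6v0a1 286, 617 and 384. Kcnh4 and Hspb9 were not well above background on any array. DNA was not measured, and Stat5a and Stat5b are near-identical genes, and signal shared between their probes was not tested. Cish, a target of STAT5, was 4.78-fold lower in COS1NR and 4.79-fold lower in MFH1NR than in MSCs. Its link to the levels of Stat5a and Stat5b was not tested.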
